A study of Homo sapiens with 12 samples.

Results

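The genes described here are 10 components of the NF-κB pathway, taken as a list of symbols. They are the 5 NF-κB subunit genes NFKB1, NFKB2, REL, RELA and RELB, and 3 genes of the inhibitor family, NFKBIA, NFKBIE and NFKBIZ. The others are TNFAIP3 and BIRC3, which encode enzymes that act on NF-κB signalling. The symbols were matched to the Ensembl identifiers of the count table, the rule uses no measured value although earlier results of these data were known when the list was drawn up, and 10 of the 60651 genes in the table were members. RNA was sequenced from EGI-1 and HUCCT1, established human cholangiocarcinoma cell lines labelled wild type, 72 h after treatment. EGI-1 received vehicle (DMSO), 500 nM decitabine, 200 nM talazoparib, or both drugs at these doses, and HUCCT1 received vehicle or 1000 nM decitabine, with 2 libraries in each of the 6 conditions. Decitabine inhibits DNA methyltransferases and talazoparib inhibits PARP. The series asked what the second drug adds to the first in this cancer. Each line is a single established culture, and the labels do not say whether the 2 libraries of a condition came from separate cultures, so p-values measure the spread between libraries, which may be technical.

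NF-κB proteins bind DNA as pairs of subunits. In resting cells, IκB proteins such as the products of NFKBIA and NFKBIE hold them in the cytoplasm, until the IKK kinases mark the IκB proteins for destruction. The freed subunits switch on inflammatory genes and also the genes of their own inhibitors, which is why NFKBIA and TNFAIP3 are known as feedback regulators. A second, slower arm of the pathway runs through the processing of the NFKB2 product and its partner RELB.

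The libraries held 23139065 to 33181930 counts in EGI-1 and 32519985 to 34965627 in HUCCT1, and the lowest count of any member in any library was 505. All 6 biliary epithelial markers were above 1 CPM (counts scaled to a common library size) in every library, although KRT7, a cytokeratin of bile duct cells, was at 39 to 69.5 CPM in EGI-1 against 4030 to 7510 CPM in HUCCT1. The library labelled EGI-1 combination replicate 2 stood apart in leukocyte markers. It held 381 counts of PTPRC, the pan-leukocyte surface phosphatase, and 148 of CD3E, a T-cell receptor subunit, whereas the other 7 EGI-1 libraries held 1 to 7 and 0 to 4. The 6 leukocyte markers summed to 22.7 CPM in that library and to 3.84 CPM in combination replicate 1. Member calls and named pathway genes of the combination against vehicle are therefore also given without it, and other combination results only in part.

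NF-κB genes are known to carry NF-κB binding sites of their own, so the DNA before their starts was read. RefSeq windows of 250 bases before each transcript start (GRCh38.p14) were found for 8 of the 10 members, all but NFKBIE and RELB, and were searched on both strands for the 10-base κB consensus, the sequence NF-κB pairs bind. By gene, 7 of the 8 members (87.5%) held a match in at least 1 window, beside 2245 of all 27305 genes with a window (8.222%). RELA held none in 2 windows. The windows of NFKBIA, TNFAIP3 and BIRC3 are printed 5′ to 3′ on the gene strand because these genes are feedback regulators whose levels the results below turn on, with each κB match in capitals. The NFKBIA window is chr14:35404750-35404999 (minus strand), the BIRC3 window is chr11:102317234-102317483 (plus strand), and both end right before the annotated gene. The TNFAIP3 stretch is chr6:137867009-137867213 (plus strand), the part of its window outside annotated exons.
NFKBIA: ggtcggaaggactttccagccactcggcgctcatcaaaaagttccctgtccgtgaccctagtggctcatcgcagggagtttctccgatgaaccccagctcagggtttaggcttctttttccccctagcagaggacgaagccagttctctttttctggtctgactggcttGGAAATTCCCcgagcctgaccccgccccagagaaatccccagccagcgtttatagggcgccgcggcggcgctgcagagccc
TNFAIP3: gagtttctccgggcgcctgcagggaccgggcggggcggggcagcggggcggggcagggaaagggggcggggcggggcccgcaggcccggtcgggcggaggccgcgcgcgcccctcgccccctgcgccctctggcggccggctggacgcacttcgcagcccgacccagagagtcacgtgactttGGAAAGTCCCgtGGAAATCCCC
BIRC3: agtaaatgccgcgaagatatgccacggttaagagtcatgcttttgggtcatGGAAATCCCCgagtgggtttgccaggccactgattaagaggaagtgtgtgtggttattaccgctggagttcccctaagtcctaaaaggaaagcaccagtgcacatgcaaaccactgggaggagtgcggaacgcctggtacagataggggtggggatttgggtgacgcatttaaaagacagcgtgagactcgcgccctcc

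TNFAIP3 held 2 matches separated by 2 bases, lying 67 to 58 and 55 to 46 bases before its start. NFKBIA held GGAAATTCCC at 81 to 72 bases before its start, and REL held the same letters at 46 to 37. NFKB1 and NFKBIZ shared GGGAATTTCC. NFKB2 had 2 matches before each of 2 starts, among them the palindrome GGGAATTCCC, which reads the same on both strands. The REL match lies within an annotated exon of its gene. So do the palindrome, the other NFKB2 match of its window and the match in the second NFKBIZ window. A match is a description of letters, and binding was not measured.

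**Figure D1:**
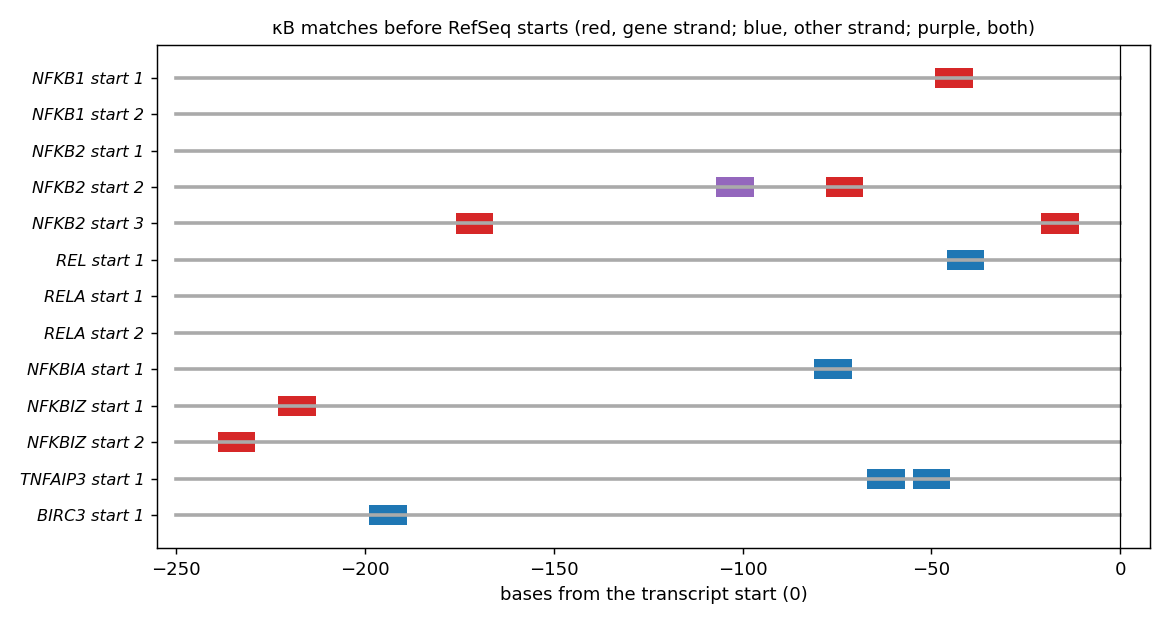
κB matches in the 250 bases before each RefSeq transcript start of 8 members. The horizontal axis gives bases from the start, grey lines are the 13 windows, and coloured blocks are matches; 9 windows hold a match and TNFAIP3 carries its pair closest together.

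Compared between genes per length of exon, the members ranged widely. In EGI-1 vehicle cells NFKBIA, which encodes IκBα, was the most abundant at 45.4 ± 2.24 CPM per kilobase of exon (SD, n = 2), followed by RELA, the main activating subunit, at 29.7 ± 0.825. REL, a subunit best known from blood cells, was the least abundant member in all 6 conditions, at 1.06 to 1.97 CPM per kilobase, and NFKB1 came next lowest in each. REL shares 5702 of its 17129 exon bases with another gene on the same strand, listed at 0 counts in every library. How reads in these bases were assigned is not stated, so its level per kilobase is uncertain. In HUCCT1 vehicle cells RELA led at 46.3 ± 6.47 CPM per kilobase. NFKB2 (28.5 ± 2.42), NFKBIZ (28.3 ± 0.868) and TNFAIP3 (27.8 ± 1.69) followed there and, by this length, did not differ beyond their spread. After decitabine TNFAIP3 led in HUCCT1 at 119 ± 2.51 CPM per kilobase. Using the longest transcript in place of all exons moved the rank of 3 to 7 members per condition. NFKBIA still led in EGI-1 vehicle at 60.2 against 50.9 for RELA. In HUCCT1 vehicle TNFAIP3 was then at 33.0, below NFKB2 at 46.6 and NFKBIZ at 42.6. NFKB1 was then no longer next lowest in EGI-1 decitabine, EGI-1 talazoparib and both HUCCT1 conditions.

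**Figure D2:**
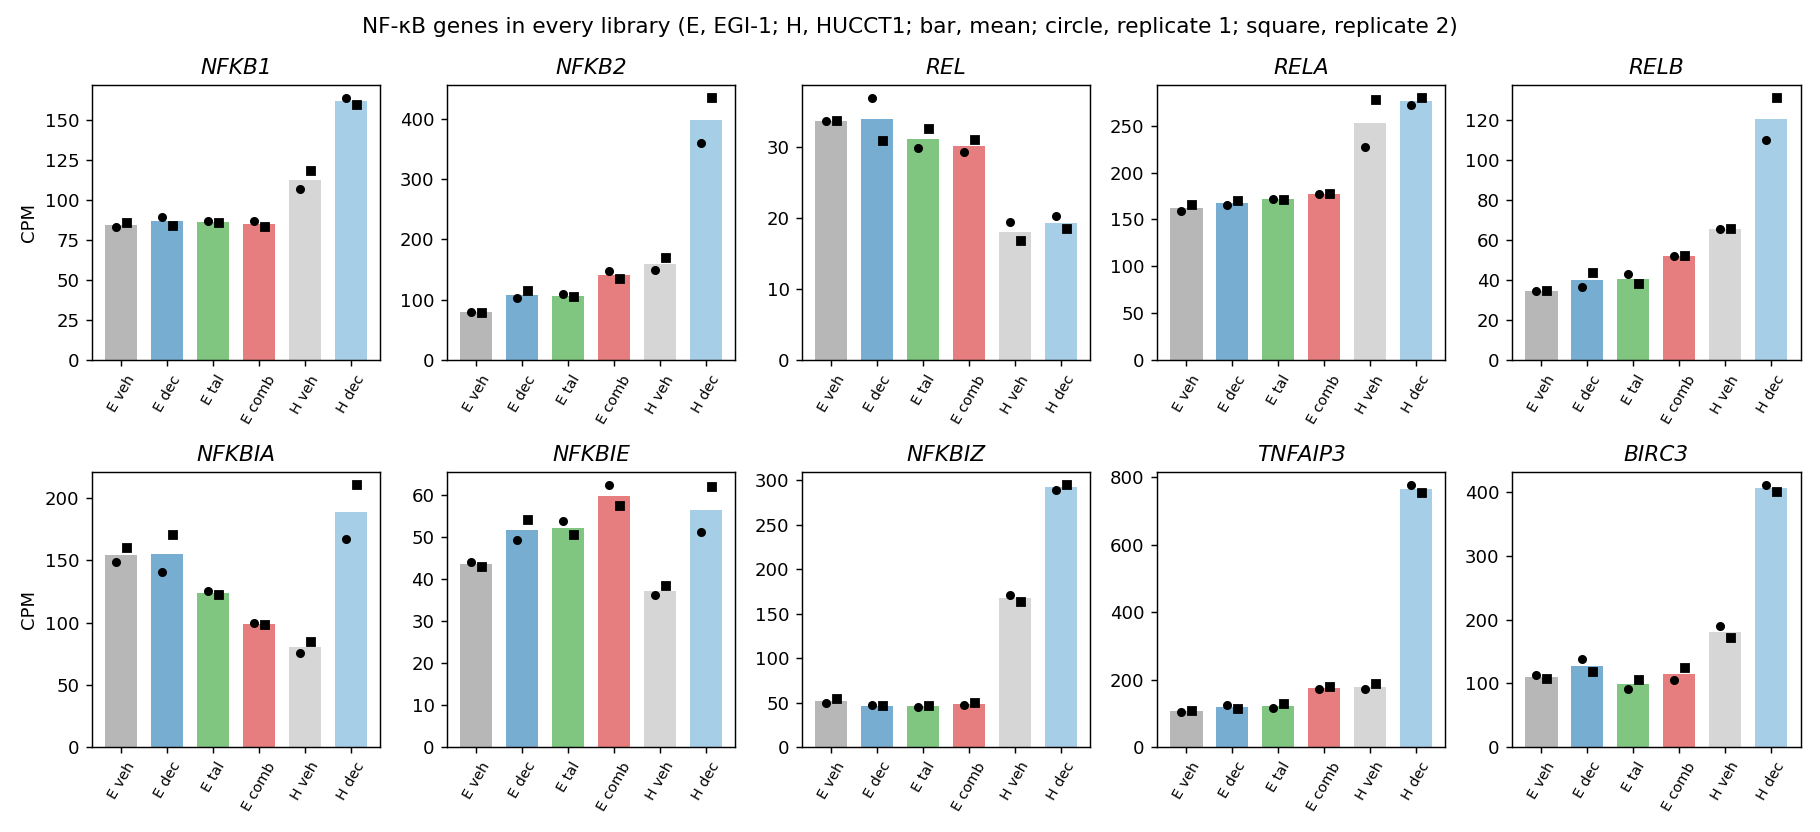
CPM (vertical axis, from 0) of each member in the 12 libraries; bars are means of 2 libraries and black marks are the libraries. NFKBIA steps down from EGI-1 vehicle to talazoparib to combination while NFKB2 steps up, and TNFAIP3 in HUCCT1 decitabine stands at 755 and 778.

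The combination was compared with vehicle in EGI-1 to ask what both drugs together did to the pathway's own components. NFKB2, TNFAIP3, RELB and NFKBIE rose and NFKBIA fell, so 5 of the 10 members passed the test (edgeR quasi-likelihood test, Benjamini-Hochberg adjusted p under 0.05), beside 18.7% of all 22406 genes tested. The members' median log2 fold change was 0.09, beside -0.02 over all genes. In bulk RNA, a change in cells of a type and a change in RNA per cell cannot be told apart.

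NFKB2 (chromosome 10, 102394110 to 102402524) encodes p100, the precursor of the p52 subunit. It measured 79.9 and 78.7 CPM in vehicle, 102 and 115 with decitabine, 109.8 and 104 with talazoparib, and 148 and 135 in the combination. Both libraries of each drug lay above both vehicle libraries, and both combination libraries lay above all others. The log2 fold change of the combination was 0.83 ± 0.0713 (SE), or 1.77-fold, with an edgeR adjusted p of 3.26e-07. NFKB2 was the 1 member called with decitabine alone, at 0.46 ± 0.0714 and an edgeR adjusted p of 0.00376, beside 0.544% of all genes called there. That call was lost without either vehicle library (edgeR adjusted p of 0.137 and 0.169). With talazoparib NFKB2 rose by 0.43 ± 0.0714, with an edgeR adjusted p of 0.00139, or 0.0600 without vehicle replicate 2.

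RELB (chromosome 19, 45001461 to 45038192) encodes the partner of p52. It measured 34.4 and 34.6 CPM in vehicle, 36.45 and 43.6 with decitabine, 43.1 and 38.2 with talazoparib, and 52.4 and 52.2 in the combination. The combination libraries lay above the 6 others, which overlapped among the single drugs. The combination raised RELB by 0.59 ± 0.0886 on the log2 scale, with an edgeR adjusted p of 0.000138. The single drugs gave 0.22 and 0.24, and neither passed.

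The other subunits did not pass in any comparison of drug arms within EGI-1 in the fit of all 8 libraries. NFKB1 (chromosome 4, 102501330 to 102617302), which encodes p105 and p50, lay between 82.8 and 89.5 CPM in all 8 libraries. RELA (chromosome 11, 65653599 to 65663090) measured 159 to 165 CPM in vehicle and 177 in both combination libraries, a log2 fold change of 0.12 with a 95% interval of 0.00241 to 0.240. REL (chromosome 2, 60881491 to 60931612) measured 33.6 in both vehicle libraries and 29.2 and 30.9 CPM in the combination, a log2 fold change of -0.17 with an interval of -0.362 to 0.0303. The interval of NFKB1 was -0.126 to 0.148. With only the libraries of the arms compared, RELA did pass in the combination against vehicle (0.13, edgeR adjusted p of 0.0346).

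NFKBIA (chromosome 14, 35401079 to 35404749) was the 1 member that fell in EGI-1. It measured 149 and 159.6 CPM in vehicle, 140.3 and 170.4 with decitabine, 126 and 122 with talazoparib, and 99.5 and 97.9 in the combination. Both talazoparib libraries lay below all vehicle and decitabine libraries, and both combination libraries lay lower again. The combination lowered it to 0.637 of vehicle, a log2 fold change of -0.65 ± 0.0773 with an edgeR adjusted p of 1.16e-05. Talazoparib alone gave -0.31 ± 0.0765 with an edgeR adjusted p of 0.0253, so 2 members were called with this drug, beside 4.12% of all genes. The NFKBIA call with talazoparib was lost without any 1 of the 4 libraries compared (edgeR adjusted p of 0.122 to 0.371) and with a replicate block (0.0525, or 0.0538 by library series). Decitabine alone gave 0.02, with an interval of -0.143 to 0.178.

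The other genes of the inhibitor family went other ways. NFKBIE (chromosome 6, 44258166 to 44265788), which encodes IκBε, measured 44.1 and 43.0 CPM in vehicle and 62.5 and 57.4 in the combination, with the single drugs between these pairs. Its combination log2 fold change was 0.45 ± 0.0757 with an edgeR adjusted p of 0.000406. Decitabine alone gave 0.25 and talazoparib alone 0.26, and neither passed (edgeR adjusted p of 0.203 and 0.0644). Talazoparib did pass for NFKBIE with only the libraries of the arms compared (0.0138) and with no filter on low counts (0.0401), by edgeR adjusted p. NFKBIZ (chromosome 3, 101827991 to 101861022) encodes the atypical IκB-family protein IκBζ, which acts in the nucleus. It lay between 45.4 and 53.8 CPM in the 8 EGI-1 libraries and passed in no comparison there. NFKBIZ shares 194 exon bases with NXPE3 on the same strand, whose counts were 9.29% to 22.4% of those of NFKBIZ in EGI-1.

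TNFAIP3 (chromosome 6, 137867214 to 137883314) encodes A20, an enzyme that edits ubiquitin chains and shuts off signalling to IKK. It measured 105 and 108 CPM in vehicle, 125 and 112 with decitabine, 117 and 127 with talazoparib, and 171 and 179.6 in the combination. The 4 single-drug libraries lay above vehicle by little, and the combination libraries lay far above both. The combination log2 fold change was 0.72 ± 0.0675, or 1.64-fold, with an edgeR adjusted p of 8.63e-07. The single drugs gave 0.17 and 0.20, and neither passed. With only the libraries of the arms compared, talazoparib did pass (0.20, edgeR adjusted p of 0.0225). TNFAIP3 shares 95 exon bases with the antisense gene WAKMAR2, whose counts were 5.82% to 7.34% of its own in EGI-1. The use of strand in counting is not stated, so reads in such overlaps cannot be assigned with certainty. BIRC3 (chromosome 11, 102317484 to 102339403), which encodes the ubiquitin ligase cIAP2, measured 91.3 to 138 CPM over the 8 libraries and passed in no EGI-1 comparison.

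**Figure D3:**
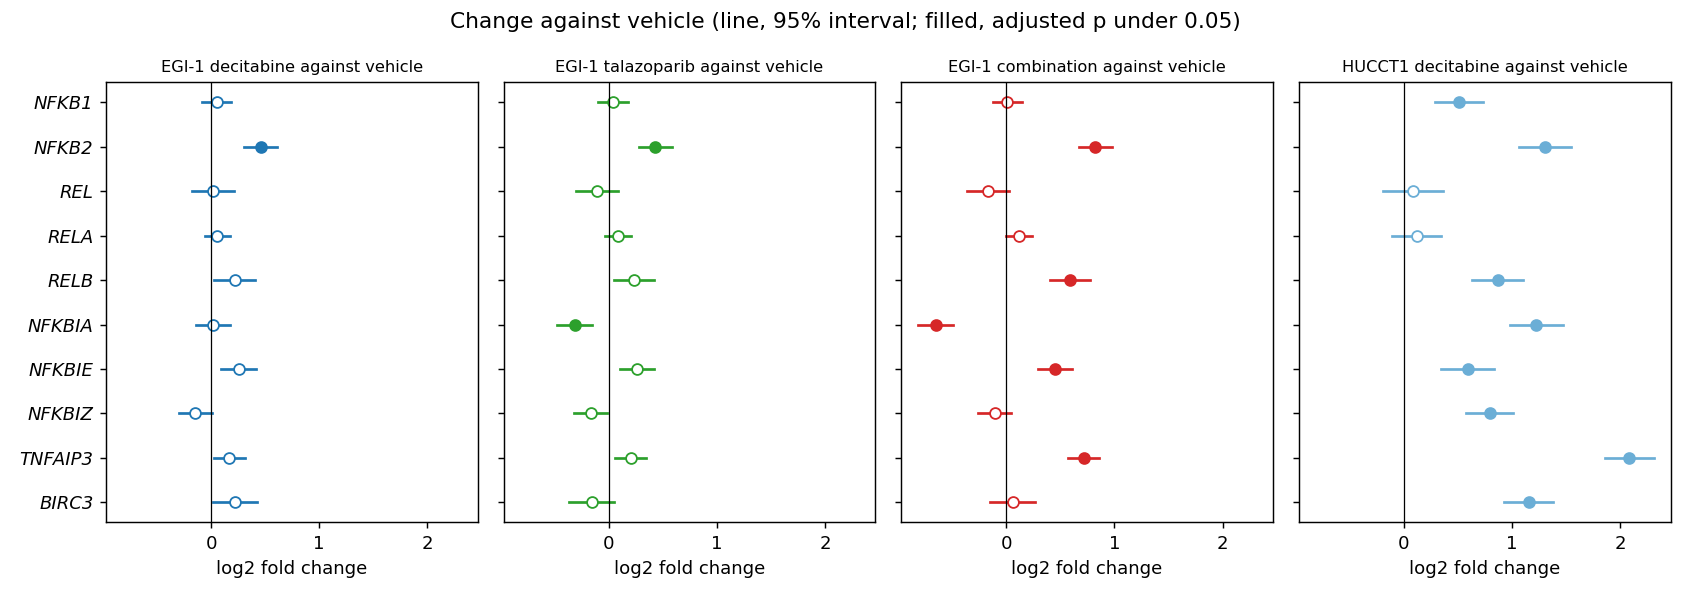
log2 fold change against vehicle (horizontal axis) of each member in 4 comparisons, with 95% intervals; filled points have an edgeR adjusted p under 0.05. NFKBIA sits at -0.65 in the EGI-1 combination and at 1.23 in HUCCT1 decitabine, and NFKB2 is filled in all 4 panels.

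These 5 calls held without combination replicate 2, the library with leukocyte markers. Without it the log2 fold changes were 0.90 for NFKB2, 0.68 for TNFAIP3, 0.60 for RELB, 0.52 for NFKBIE and -0.64 for NFKBIA, and the edgeR adjusted p-values ran from 3.48e-06 for NFKB2 to 0.00243 for RELB. The library names fall into a lettered and a numbered series, each with 1 library per EGI-1 condition. Within the lettered series the combination changed NFKB2 by 0.75 and NFKBIA by -0.60 on the log2 scale, and within the numbered series by 0.91 and -0.68. RELB (0.60 in both), NFKBIE (0.38 and 0.54) and TNFAIP3 (0.78 and 0.67) also had the same sign in both series.

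The combination was then set against each drug alone, to see what adding the other drug did. Against decitabine, 4 of 10 members passed, beside 7.68% of all genes. NFKBIA fell by 0.67 on the log2 scale (edgeR adjusted p of 2.72e-05), and TNFAIP3 (0.55), RELB (0.37) and NFKB2 (0.37) rose. RELB lost this call without either combination library or decitabine replicate 1 (edgeR adjusted p of 0.0829, 0.0724 and 0.101, with combination replicate 2 given before replicate 1), and NFKB2 without combination replicate 1 (0.0563). Against talazoparib the same 4 passed in the same directions, beside 1.92% of all genes. TNFAIP3 rose by 0.51 and NFKB2 by 0.39, with edgeR adjusted p-values of 0.000276 and 0.00562. RELB (0.36, edgeR adjusted p of 0.0457) and NFKBIA (-0.34, edgeR adjusted p of 0.0307) stood close to the threshold. RELB and NFKBIA lost the call without combination replicate 2, at edgeR adjusted p-values of 0.235 and 0.254, and also without combination replicate 1 or any 1 of the vehicle and talazoparib libraries. NFKB2 lost it without combination replicate 1 (0.0650) or talazoparib replicate 2 (0.121), again by edgeR adjusted p. These contrasts share the combination libraries and are not independent of each other.

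A direct test asked whether, on the log2 scale, both drugs together did other than their separate effects added up. By edgeR 0 of 10 members passed and 0 passed by DESeq2, beside 0.161% of all genes by edgeR. At an unadjusted edgeR p under 0.05 there were 2 of 10 members, beside 757 of all 22406 genes. These were TNFAIP3 at 0.35 ± 0.0953 (edgeR p of 0.00203) and NFKBIA at -0.36 ± 0.109 (edgeR p of 0.00446). Their edgeR adjusted p-values were 0.711 and 1. Both passed when decitabine replicate 1 was left out, with edgeR adjusted p-values of 0.0225 and 0.00315. NFKB2 departed by -0.07, with a 95% interval of -0.278 to 0.145.

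**Figure D4:**
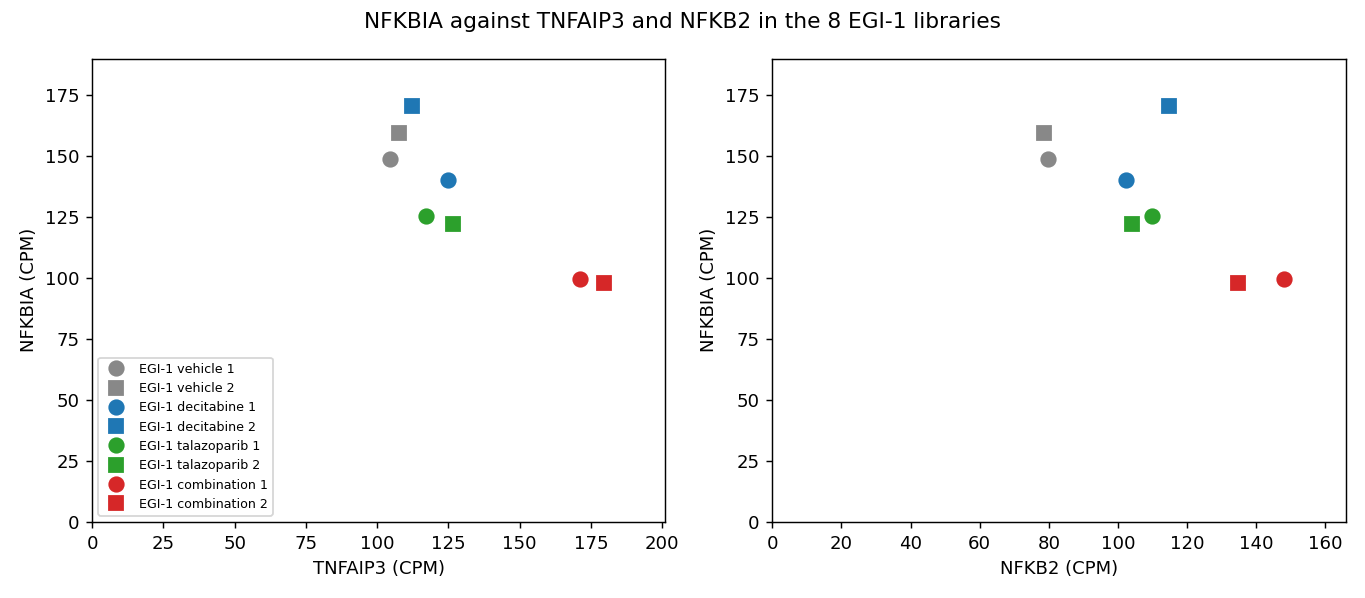
NFKBIA CPM (vertical axis) against TNFAIP3 CPM (left) and NFKB2 CPM (right) in the 8 EGI-1 libraries, coloured by condition. The combination libraries sit apart at under 100 CPM of NFKBIA and over 170 CPM of TNFAIP3, and all vehicle libraries sit above 148 CPM of NFKBIA.

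Over the 8 EGI-1 libraries, the genes closest to the 3 most changed members were found by Pearson r of log2 CPM among 13707 genes. For NFKB2 they were PLCB2 (0.995), EPPK1 (0.994) and TMEM198B (0.992). For TNFAIP3 they were FAM8A1 (0.990), ADPRHL1 (0.988) and RTCA (0.983). For NFKBIA they were HOXA-AS2 (0.992), CYP1B1 (0.990) and PTMS (0.986). The libraries fall into 4 conditions, so these values are a description of a shared order of conditions.

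In HUCCT1, decitabine was compared with vehicle to see the response of a second line to the demethylating drug. Of the 10 members 8 rose and none fell, beside 33.5% of all 22479 genes tested (edgeR adjusted p under 0.05). REL and RELA were the 2 that did not pass. The members' median log2 fold change was 0.83, beside 0.00 over all genes. Mitochondrial reads were 2.90% and 2.50% of counts in vehicle and 2.045% and 1.595% with decitabine, and their part in these results was not tested.

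TNFAIP3 rose the most. It measured 172 and 187 CPM in vehicle and 778 and 755 with decitabine, a 4.25-fold rise (2.09 ± 0.108 on the log2 scale, edgeR adjusted p of 5.92e-14). The 2 groups lay far apart. WAKMAR2 counts were 1.68% to 2.09% of those of TNFAIP3 in this line. BIRC3 rose from 191 and 172 CPM to 412 and 401, a log2 fold change of 1.16 ± 0.109 with an edgeR adjusted p of 5.00e-09.

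Among the inhibitor-family genes, NFKBIA rose in HUCCT1. It measured 75.4 and 84.7 CPM in vehicle and 166.7 and 211 with decitabine, a log2 fold change of 1.23 ± 0.119 with an edgeR adjusted p of 8.24e-09. NFKBIZ went from 171 and 163.6 to 289 and 295 CPM (0.79 ± 0.106), and NFKBIE from 36.2 and 38.4 to 51.2 and 61.9 CPM (0.59 ± 0.119). In all 3 the decitabine libraries lay above the vehicle libraries.

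The subunits were graded. NFKB2 measured 149 and 169 CPM in vehicle and 360.0 and 434 with decitabine, a log2 fold change of 1.31 ± 0.114 with an edgeR adjusted p of 1.37e-09. RELB went from 65.8 and 65.6 to 110.2 and 131 CPM (0.87 ± 0.113), and NFKB1 from 107 and 118 to 163.4 and 159 CPM (0.51 ± 0.107). RELA measured 228 and 278 CPM in vehicle and 272 and 279 with decitabine, so its groups overlapped, and its interval ran from -0.110 to 0.347. REL measured 19.5 and 16.7 CPM against 20.3 and 18.4, also overlapping, with an interval of -0.191 to 0.367.

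The decitabine effect was larger in HUCCT1 than in EGI-1 for 7 members in a test of the difference itself, beside 15.9% of 25096 genes. TNFAIP3 differed by 1.94 ± 0.109 on the log2 scale, NFKBIA by 1.23 ± 0.145 and NFKBIZ by 0.95 ± 0.105, and the edgeR adjusted p-values of the 3 were 4.33e-11, 3.37e-06 and 1.09e-06. NFKBIE, at 0.35 ± 0.135, did not pass (edgeR adjusted p of 0.0836), but did with a replicate block (0.0451) or without HUCCT1 decitabine replicate 1 (0.0175), and REL and RELA, at 0.09 and 0.08, had intervals that included 0. The dose was 1000 nM in HUCCT1 and 500 nM in EGI-1, and the lines were sequenced as separate sets of libraries, so line, dose and library set cannot be told apart.

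The lines also differed in vehicle cells at 72 h, where line and library set cannot be told apart. In vehicle cells 9 of 10 members passed between the lines, beside 55.8% of all genes. NFKBIZ was higher in HUCCT1 by 1.69 ± 0.0753 on the log2 scale, and NFKB2, RELB, TNFAIP3, BIRC3, RELA and NFKB1 were higher by 0.42 to 1.00. NFKBIA and REL were lower in HUCCT1, at -0.95 ± 0.103 and -0.89 ± 0.109. NFKBIE, at -0.22, did not pass (edgeR adjusted p of 0.0529), but 5 alternatives called it lower in HUCCT1, among them upper-quartile factors at -0.34 and a replicate block at -0.33 (edgeR adjusted p of 0.00409 and 0.00739). After decitabine NFKBIA in HUCCT1 was at 189 ± 31.1 CPM, beside 154 ± 7.59 CPM in EGI-1 vehicle cells (SD, n = 2), with no test of this pair.

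The rest of the pathway was described from 7 lists of 73 genes, of which 72 were found in the table by symbol. In the EGI-1 combination 62 were tested, of which 23 rose and 6 fell, beside 18.7% of all genes called in either direction, and the median log2 fold change was 0.17 beside -0.02 over all genes. In HUCCT1 decitabine 67 were tested, of which 33 rose and 6 fell, beside 33.5% of all genes called, with a median of 0.29 beside 0.00. The counts of single lists that follow stand against these same shares, and lists of about 10 genes give coarse counts. Counts from fits without a library do not stand against these shares. Over all genes, too, the fewest calls in the EGI-1 combination came without vehicle replicate 2. The ligand genes TNF, LTA and LTB and the IκB-like gene NFKBIL1 were listed at 0 to 2 counts in every library. They lie in the major histocompatibility region of chromosome 6, where 132 of 181 protein-coding genes had at most 10 counts in every library, among them RPS18, a ribosomal protein gene of every cell, at 5 or fewer. So their low counts cannot be read as absence of the RNA.

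Of 12 tested target genes of NF-κB, 7 rose and 2 fell in the EGI-1 combination, beside 18.7% of all genes called. Fewer targets were called without either vehicle library. ICAM1, an adhesion molecule for leukocytes, measured 22.4 and 21.5 CPM in vehicle and 43.5 and 45.4 in the combination, a log2 fold change of 1.01 ± 0.0795 with an edgeR adjusted p of 1.10e-07. CSF2, a growth factor for myeloid cells, rose by 0.99, IL6 by 0.79 and the chemokine CCL20 by 0.81. The 2 that fell, named here after their values were seen, were TNFAIP2 at -0.43 and CXCL2, a neutrophil chemokine, at -0.30. In HUCCT1 decitabine 13 of 15 tested targets rose and none fell, beside 33.5% of all genes called, with a median of 3.79. CCL20 went from 1.65 and 1.39 to 147 and 134 CPM, a log2 fold change of 6.52 ± 0.161. The neutrophil chemokines CXCL3, CXCL1 and CXCL8 rose by 6.23, 6.15 and 5.54.

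Of 10 tested receptor genes 5 rose and 1 fell in the EGI-1 combination, led by IL1R1, the interleukin-1 receptor, at 1.63, and TNFRSF1B, the second TNF receptor, at 0.81, while TLR3 fell by 0.47 on the log2 scale. These 6 calls of 10 stand beside 18.7% of all genes, and fewer were called without vehicle replicate 2, as over all genes. In HUCCT1 5 of 11 rose and 3 fell, beside 33.5% of all genes called. CD40 led at 5.73, then TNFRSF1B at 4.10, with TLR3 at -1.97. CD40 rests on 1 and 4 counts in the vehicle libraries. Of the ligands, 3 of 5 rose in EGI-1, TNFSF12 by 0.63, IL1A by 0.63 and IL1B by 0.36, and in HUCCT1 TNFSF14, IL1B and IL1A rose by 4.39, 3.07 and 3.03, with 2 of 6 falling. The 2 that fell in HUCCT1 lost their calls without decitabine replicate 1. The 11 IKK and upstream kinase genes held 0 that rose and 2 that fell in EGI-1, IKBKB, a catalytic IKK subunit, by 0.40 and TAB1 by 0.25 on the log2 scale. These 2 of 11 are close to the 18.7% of all genes, and fewer were called without any 1 of the vehicle, talazoparib and combination libraries. In HUCCT1 2 of the 11 rose, MAP3K8 at 1.13 and IKBKE at 1.03, and TAB1 fell by 0.49 on the log2 scale, 3 calls of 11 beside 33.5% of all genes. That count was 8 with a replicate block, which called 10136 of all genes in place of 7525, and 6 with all 12 libraries in 1 fit.

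Of 10 deubiquitinases and other brakes, 4 rose and 1 fell in the EGI-1 combination, beside 18.7% of all genes called. Fewer of these were called without either vehicle library, as over all genes without vehicle replicate 2. With only the libraries of the arms compared 8 of the 10 were called, where 5799 of all genes were called in place of 4194. The risers were CYLD, a deubiquitinase, at 0.49, TNIP2 at 0.38, RNF11 at 0.36 and TNIP1, which binds A20, at 0.25. ZC3H12A, an RNase that degrades cytokine transcripts, was the 1 that fell, at -0.18 (named after its value was seen). In HUCCT1 5 of 10 rose, beside 33.5% of all genes called, among them ZC3H12A at 3.22 and TNIP1 at 1.28. Of 11 adaptors and ligases 3 rose in EGI-1, TRAF1 at 2.14, TRADD at 0.47 and TRAF3 at 0.21, and 2 in HUCCT1, TRAF1 at 2.21 and BIRC2 at 0.29. Beside 18.7% and 33.5% of all genes, neither count stood clearly above the background, and each became 1 without any 1 of the libraries compared. Among IκB proteins outside the members, NFKBIB rose in both lines, at 0.24 in EGI-1 and 0.67 in HUCCT1, where NFKBID (0.57) and BCL3 (0.55) also rose. The EGI-1 call of this list was lost without either vehicle library and with a replicate block, and 3 were called with only the libraries of the arms compared.

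Of the 21 pathway genes named for EGI-1, 15 kept their call without combination replicate 2 and 21 kept their sign. TRAF1, which T cells also express, had 42 counts in combination replicate 1 and 103 in replicate 2. The part of leukocyte RNA in this difference was not tested. The TRAF1 log2 fold change was 1.55 without replicate 2. CCL20 was at 0.60 without it and lost its call at an edgeR adjusted p of 0.234. TRADD, TRAF3, TAB1, TNFSF12 and TLR3 also lost theirs. Summed markers of other cell types also differed between the groups. In HUCCT1 the 5 fibroblast markers went from 37.2 to 37.7 CPM in vehicle to a highest sum of 198 CPM with decitabine, and the number of them at 1 CPM or more in both libraries went from 2 to 4. At its highest, COL1A1 was at 189 CPM, LUM 10.3, PDGFRB 2.84, COL1A2 1.87 and DCN 0.375. The 4 endothelial markers went from 4.23 to 5.47 CPM in vehicle to 25.8 to 27.1 CPM with decitabine, and the 6 biliary epithelial markers from 14500 to 16300 CPM down to 9110 to 10400 CPM. In the EGI-1 combination the fibroblast markers summed to 42.9 to 49.8 CPM beside 28.7 to 30.4 in vehicle, nearly all of it COL1A1 with DCN at 0, and the endothelial markers to 28.6 to 29.8 CPM beside 19.8 to 21.2. The part of these markers in the results of either line was not tested.

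**Figure D5:**
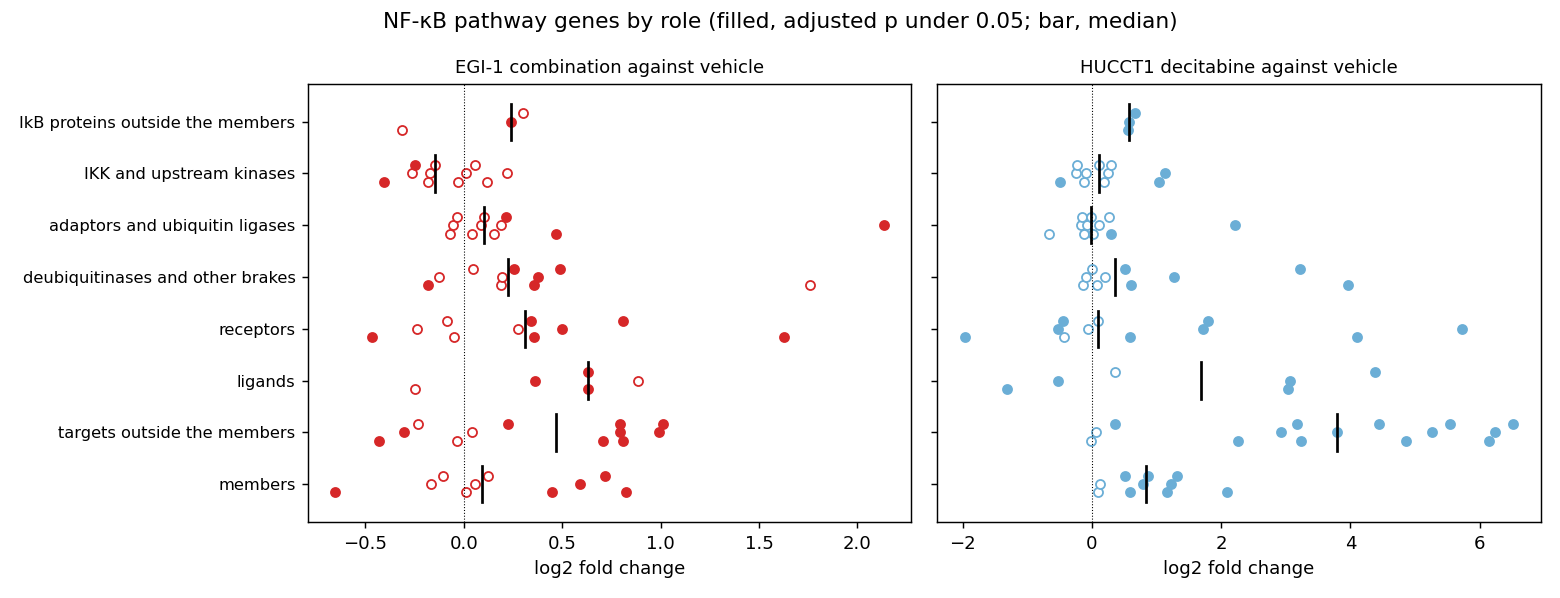
log2 fold change (horizontal axis) of pathway genes by role and of the 10 members, in the EGI-1 combination (left) and HUCCT1 decitabine (right), each against vehicle; filled points have an edgeR adjusted p under 0.05 and bars are medians. The axes differ in scale: targets outside the members have a median of 0.47 at left and 3.79 at right.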

How the data were processed

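The authors deposited 1 table of whole-number read counts per Ensembl gene for the 12 libraries. The labels name fastp, Trim Galore, HISAT2 and featureCounts on GRCh38, whereas the methods describe STAR and RSEM. Whole numbers rather than estimates stand in the table, and library names of the talazoparib arm carry another dose than the labels. Symbols came from GENCODE release 44 (60437 of 60651 identifiers matched). The members and lists were chosen with earlier results of these data known. Tests used edgeR 4.0.16 (R 4.3.3) quasi-likelihood fits with TMM factors and filterByExpr, a fit for EGI-1 (8 libraries), for HUCCT1 (4) and for both lines (12), with adjusted p over all genes tested. CPM values share 1 TMM scaling over 12 libraries. Replicates differed beyond sampling noise (chi-square per gene 2.73 to 12.6). The fit was tested on simulated data. Alternatives were DESeq2 1.42.0, other factors, no filter, blocks and leaving out libraries. Named pathway genes were, per list and comparison, up to 4 called genes of largest change with mean log2 CPM of at least 0. An exact permutation test of 2 against 2 libraries cannot go below 0.333 and was not used. SOD2 was not analysed here.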

Additional observations from a re-analysis of the deposited data

Results flagged for a closer look

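Among the 10 members, 7 had a decitabine effect that differed between the lines when the difference itself was tested (edgeR, adjusted over all genes). This stands beside 15.9% of all 25096 genes called in that test. Each of the 7 effects was larger in HUCCT1. The differences on the log2 scale were 1.94 for TNFAIP3, 1.23 for NFKBIA, 0.95 for NFKBIZ, 0.95 for BIRC3, 0.87 for NFKB2, 0.67 for RELB and 0.48 for NFKB1. The line, the dose and the library set cannot be told apart.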

How the results depend on the processing

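With 2 libraries per condition, the counts of members called were kept within 1.5 times under every alternative for the EGI-1 combination against vehicle (5 to 6), HUCCT1 decitabine (8), the line difference (7 to 8) and vehicle cells (9 to 10). Leaving out single libraries gave 2 to 6 members for the combination against decitabine, 1 to 4 against talazoparib, 0 to 3 for decitabine, 0 to 4 for talazoparib and 0 to 2 for the departure from the sum. NFKB2 lost its decitabine call without either vehicle library. NFKB2 lost its talazoparib call without vehicle replicate 2, and NFKBIA lost its talazoparib call without any 1 of the 4 libraries compared. The replicate block, by title number or by library series, gave 2 members for the combination against talazoparib and 1 for talazoparib, where NFKBIA was at an edgeR adjusted p of 0.0525. Only the arms compared gave 4 for talazoparib. Same-numbered EGI-1 libraries did not deviate together across all conditions. The r was 0.222 between talazoparib and combination, and -0.267 and -0.169 between decitabine and these arms. Between vehicle and the other arms it was -0.0495 to 0.103. So the numbers were not shown to pair the libraries. In HUCCT1 the r between vehicle and decitabine was 0.242, and a replicate block called 10136 genes there in place of 7525. A crossed replicate block, chosen after seeing the data, called 2643 genes in place of 1720 for the combination against decitabine. Over all alternatives the genes called ran from 1850 to 5799 for the combination against vehicle (4194 as reported), 853 to 2643 against decitabine (1720), 111 to 1007 against talazoparib (431), 22 to 417 for decitabine (122), 247 to 1851 for talazoparib (923), 27 to 85 for the departure (36) and 2540 to 4580 for the line difference (4000). Upper-quartile factors called 2177 higher and 2244 lower genes in the combination in place of 2489 and 1705, and moved the median of all genes between the lines in vehicle from -0.01 to -0.13. Under these factors no called member changed sign, but 4 values near 0 in EGI-1 did, among them NFKB1 in the combination (0.01 to -0.025).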
